A study of Mus musculus with 6 samples.

Results

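The 10 marker genes of adipocytes described here were read in RNA from mouse right atria (RAs), namely 5 of brown fat (Ucp1, Cidea, Elovl3, Dio2 and Prdm16) and 5 of white fat or of adipocytes in general (Adipoq, Lep, Retn, Cfd and Plin1). These 10 genes, of 54093 in the table, were chosen by name, with earlier results of the same libraries known, to see which kind of fat each library held. Each symbol had 1 row. The RAs came from wild-type C57BL/6 mice, male or female, at postnatal day 21. The sham group had a sham operation as pups, and the volume overload (VO) group had a fistula made between the abdominal aorta and the inferior vena cava, which sends more blood back to the RA. Each group held 3 libraries of whole RA tissue, named here from sham 1 to VO 3. The paper names no transgene. It names isoflurane anaesthesia and local lidocaine for the operation, and isoflurane again before the RAs were taken. The labels do not say whether each library came from a separate animal, so any p-value measures only the spread between these libraries.

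White adipocytes store triglyceride in a large lipid droplet and release hormones such as leptin and adiponectin. Brown adipocytes hold many small droplets and many mitochondria, and they burn fatty acids to make heat through Ucp1, a carrier of the inner mitochondrial membrane that lets protons back in without making ATP. Beige adipocytes are Ucp1-positive cells that arise within white depots. Around the heart and the great vessels of young mice, fat lies on the epicardium, along the thoracic aorta and in the mediastinum, and much of the fat along the thoracic aorta is of the brown type. Since brown fat and heart muscle both live on fatty acid oxidation, many genes of brown fat are also genes of the heart, and the markers that tell them apart are few.

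Values are FPKM, fragments scaled by gene length and by a factor for each library, and can be compared between genes. The factor did not follow the fragments on genes. The libraries held 15963082 to 17237903 fragments on genes, and the table's values give back the number of fragments on each gene. The atrial genes Myl7, Nppa, Sln, Myl4 and Bmp10 were high in all 6 libraries, the lowest of their values being 378 FPKM for Myl4 in VO 1. Xist had 7874 to 20722 fragments in sham 1, sham 3, VO 1 and VO 2 and 3 in each of the others, and the Y-linked gene Ddx3y had 2448 in sham 2, 2420 in VO 3 and at most 1 in the rest. With 39 genes each, VO 1 and VO 3 both stood apart from the rest, counted as tested genes read more than 4-fold above the highest of the other 5 libraries, where the other 4 libraries had 1 to 3 such genes. That share was 0.309% of the 12627 genes with a mean of at least 1 FPKM.

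Within the VO group, Ucp1, Elovl3 and the 5 white or general markers were read in 1 library, VO 3. Cidea, Dio2 and Prdm16 were read in every library of both groups. Ucp1 was read at 254 FPKM in VO 3 and at 0 in the other 5 libraries. Adipoq, Lep, Retn, Cfd and Plin1 were also high in VO 3, were at 0 in VO 1 and VO 2, and were at or below 0.733 FPKM in the sham libraries. Together the 10 genes held 15106 fragments, or 0.0927% of the fragments of VO 3 (exact binomial 95% interval 0.0912 to 0.0942, counting error only), against 0.00137% to 0.00200% in the other libraries. In VO 1 and VO 2 that share came from Cidea, Dio2 and Prdm16 alone, and in the sham libraries mostly from them. The share in the other libraries is thus not a measure of adipocyte RNA. For the remaining markers, fewer adipocytes and less RNA per adipocyte cannot be told apart in whole tissue.

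The 250 bases before the start of transcription are given for Ucp1 as the brown marker, for Adipoq and Cfd as markers of any adipocyte, and for Dio2 as a brown marker that did not follow the others. They are from RefSeq for GRCm38.p6, from which 8 of the 10 genes were used, and each is written 5′ to 3′ on the strand of its gene. Ucp1 lies at chr8:83290098-83290347 (plus strand), Adipoq at chr16:23146286-23146535 (plus strand), Cfd at chr10:79890603-79890852 (plus strand) and Dio2 at chr12:90739039-90739288 (minus strand), where RefSeq starts Dio2 upstream of the gene model in the table. Capitals mark every match, on either strand, to TATANA (the TATA box), CCAAT (the CCAAT box), TTGCNNAA (the core of the sites of C/EBP factors, which act in adipocyte differentiation) or AGGTCA (the core of nuclear receptor sites). Overlapping matches run together.
Ucp1: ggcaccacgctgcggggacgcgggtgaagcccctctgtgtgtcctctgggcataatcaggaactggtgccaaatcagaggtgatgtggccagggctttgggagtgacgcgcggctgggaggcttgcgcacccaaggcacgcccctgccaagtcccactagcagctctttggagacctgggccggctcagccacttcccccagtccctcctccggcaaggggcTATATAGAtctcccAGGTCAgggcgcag
Adipoq: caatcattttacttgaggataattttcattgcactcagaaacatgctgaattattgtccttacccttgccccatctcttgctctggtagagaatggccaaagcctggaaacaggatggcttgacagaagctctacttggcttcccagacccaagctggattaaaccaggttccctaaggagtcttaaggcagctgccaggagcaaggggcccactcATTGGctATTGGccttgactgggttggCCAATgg
Cfd: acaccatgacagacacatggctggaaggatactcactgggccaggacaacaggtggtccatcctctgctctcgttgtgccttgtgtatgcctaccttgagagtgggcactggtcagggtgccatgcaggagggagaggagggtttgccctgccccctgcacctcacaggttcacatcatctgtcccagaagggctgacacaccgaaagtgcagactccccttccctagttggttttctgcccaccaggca
Dio2: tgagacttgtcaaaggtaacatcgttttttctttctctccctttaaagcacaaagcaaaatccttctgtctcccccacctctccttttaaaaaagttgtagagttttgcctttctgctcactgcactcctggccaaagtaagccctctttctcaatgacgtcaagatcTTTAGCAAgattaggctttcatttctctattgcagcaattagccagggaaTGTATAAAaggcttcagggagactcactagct

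Of 32851 RefSeq promoter windows of the same length, 22.6% held TATANA, 33.8% CCAAT, 9.56% TTGCNNAA and 14.0% AGGTCA. The Ucp1 window held 2 overlapping TATANA matches and 1 AGGTCA, while the Adipoq window held 3 CCAAT and no other of these motifs. The Cfd window held none of the 4 motifs, and that of Dio2 had 2 TATANA and 1 TTGCNNAA. A match describes the letters of the window and is not evidence that a factor binds there.

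Among the brown markers, Ucp1 (chr8:83290352-83298452, ENSMUSG00000031710) gave the widest contrast. It was at 0 FPKM in sham 1, sham 2, sham 3, VO 1 and VO 2, and at 254 FPKM in VO 3 (exact Poisson 95% interval 248 to 260), from 6823 fragments. A count of 0 allowed up to 3 fragments, or 0.118 FPKM in the least sensitive of these libraries, so VO 3 was at least 2151-fold higher. By FPKM, Ucp1 ranked 106 among all genes of VO 3. The VO group mean was thus 84.5 ± 146 FPKM (SD, n = 3), a mean that described none of its libraries.

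Cidea (chr18:67343564-67367794), a protein of the lipid droplet surface that is abundant in brown fat, was read in every library. Its level was 7.57, 4.73 and 6.54 FPKM in sham 1 to sham 3, and 3.50, 7.69 and 65.7 FPKM in VO 1 to VO 3. VO 3 was 8.53-fold above VO 2, the next highest (95% counting interval 7.19 to 10.2). In the other 5 libraries the groups overlapped, and Cidea was present where Ucp1 and Adipoq had no fragment. A low level of Cidea in an RA library was therefore not tied to the other fat markers, while the excess in VO 3 went with them.

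Elovl3, an enzyme that lengthens fatty acids and is induced in brown fat by cold, was scarce throughout. It was read at 0.043, 0 and 0.082 FPKM in the sham libraries, from 1, 0 and 2 fragments, and at 0, 0 and 0.814 FPKM in the VO libraries, with 20 fragments in VO 3. The ratio of VO 3 to sham 3 was 9.90, with a counting interval of 2.41 to 87.4. Beside Ucp1, Elovl3 was low in VO 3, ranking 13268 by FPKM.

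Dio2, the deiodinase that makes active thyroid hormone within cells, was the marker whose groups did not overlap. It was read at 0.276, 0.289 and 0.348 FPKM in sham 1 to sham 3 (0.305 ± 0.038, SD, n = 3) and at 1.66, 0.675 and 1.90 FPKM in VO 1 to VO 3 (1.41 ± 0.65, SD, n = 3). The difference of the group means was 1.79 ± 0.44 (SE) on the log2(FPKM + 0.1) scale, and 1.53 without VO 3. VO 1, where Ucp1, Adipoq, Plin1 and Cfd were all at 0, held 175 Dio2 fragments against 182 in VO 3. Of all tested genes, 8.25% were higher in all 3 VO libraries than in all 3 sham libraries. Dio2 itself was under the mean of 1 FPKM needed for testing, and as it was chosen with results of this comparison known, its values stand as a description without a test.

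Prdm16, a transcriptional regulator that directs precursors towards the brown fat fate, differed little between libraries. It was read at 0.559, 0.666 and 0.672 FPKM in the sham libraries and at 0.520, 0.592 and 1.04 FPKM in the VO libraries. VO 3 was highest, at 1.55-fold the level of sham 3 (counting interval 1.20 to 2.01). The group means differed by 0.11 ± 0.28 (SE) on the log2(FPKM + 0.1) scale, less than the spread between replicates, and by -0.16 without VO 3. The 3 genes Cidea, Dio2 and Prdm16 each share their position with a transcript of the opposite strand, and as no source used here states that strand was used in counting, their reads cannot be told apart from those of the partners. The same holds for several genes named from the lists, such as Pparg, Ebf2, Gk, Nrg4, Slc27a2 and Adrb3.

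**Figure D1:**
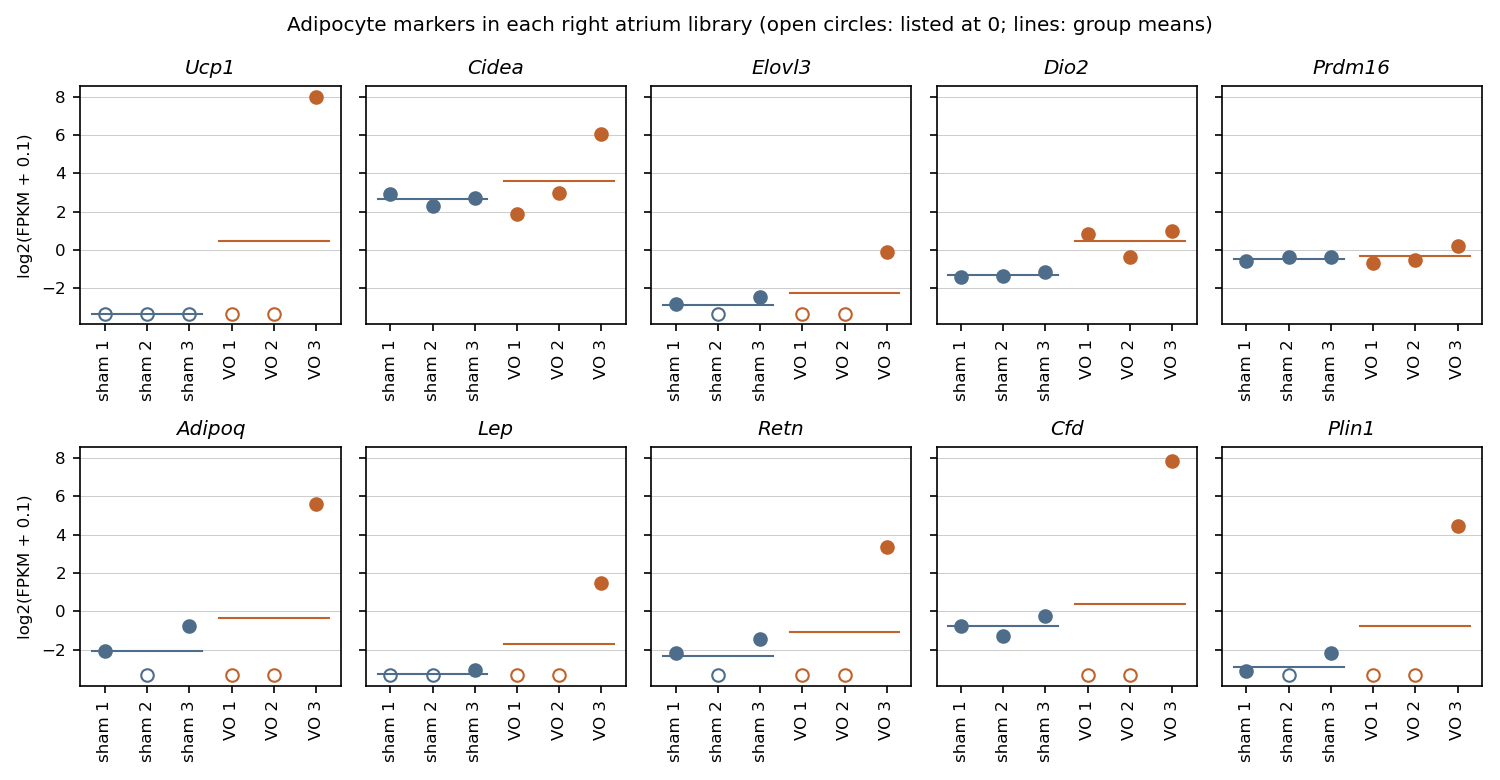
Level of each of the 10 markers in the 6 libraries, on the log2(FPKM + 0.1) scale, with brown markers in the upper row and white or general markers in the lower row. Each circle is 1 library, an open circle is a value of 0 and lines are group means. VO 3 is the highest library in all 10 panels, while Dio2 is also high in VO 1.

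Among the white and general markers, Adipoq, which encodes the hormone adiponectin made by brown and white adipocytes alike, was read in 3 of the 6 libraries. It was read at 0.140, 0 and 0.489 FPKM in sham 1 to sham 3, from 3, 0 and 11 fragments. VO 1 and VO 2 had none, and VO 3 had 48.7 FPKM from 1105 fragments, 99.5-fold the level of sham 3 (counting interval 55.4 to 200). The order was thus VO 3, sham 3 and sham 1, with sham 2, VO 1 and VO 2 at 0. Sham 3 and sham 1, at 11 and 3 fragments, are close to the limit of detection.

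Cfd, adipsin or complement factor D, a serine protease released by adipocytes, was the most abundant of the white and general markers. The sham libraries were at 0.488, 0.315 and 0.733 FPKM, VO 1 and VO 2 were at 0, and VO 3 was at 231 FPKM (exact Poisson 95% interval 224 to 239). VO 3 was 315-fold above sham 3 (counting interval 176 to 633). Cfd ranked 115 by FPKM in VO 3, where Ucp1 ranked 106. Unlike the other general markers, Cfd was read in sham 2, with 5 fragments.

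Plin1, perilipin 1, coats the lipid droplet and gates lipolysis, and so marks adipocytes with stored fat. It was at 0.014, 0 and 0.119 FPKM in the sham libraries, from 1, 0 and 9 fragments, at 0 in VO 1 and VO 2, and at 21.5 FPKM in VO 3, from 1644 fragments. VO 3 was 181-fold above sham 3 (counting interval 95.04 to 396).

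The remaining 2 are Retn, which encodes resistin, a hormone of mouse adipocytes, and Lep, which encodes leptin, the satiety hormone made mostly by white adipocytes in proportion to their fat. Retn was at 0.122, 0 and 0.272 FPKM in the sham libraries, at 0 in VO 1 and VO 2, and at 10.1 FPKM in VO 3, which was 36.9-fold above sham 3 (counting interval 17.7 to 92.7). Lep was at 0, 0 and 0.018 FPKM in the sham libraries and at 0, 0 and 2.70 FPKM in the VO libraries. VO 3 held 149 Lep fragments and sham 3 held 1, a ratio of 148 with a counting interval of 26.1 to 5866. Leptin RNA was therefore present in VO 3, at a lower level per length than Ucp1 at 254 or Adipoq at 48.7 FPKM.

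As each group mean followed VO 3, the comparison of VO with sham depended on that library for 9 of the 10 markers. With all libraries, the difference of group means on the log2(FPKM + 0.1) scale was 3.77 ± 3.77 (SE) for Ucp1, 2.15 ± 2.61 for Plin1, 1.70 ± 3.07 for Adipoq, 1.52 ± 1.60 for Lep, 1.21 ± 2.29 for Retn and 1.17 ± 3.74 for Cfd. Without VO 3 it was 0 for Ucp1 and negative for Plin1 (-0.44), Adipoq (-1.27), Lep (-0.08), Retn (-1.02) and Cfd (-2.56). Cidea passed from 0.97 to -0.24 and Elovl3 from 0.60 to -0.46. Dio2 alone of the 10 kept its sign. The 6 markers in the tested set, Ucp1, Cidea, Adipoq, Retn, Cfd and Plin1, include 5 whose mean over the other 5 libraries was under 1 FPKM, so they passed the filter through VO 3, and the 4 others did not pass it.

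**Figure D2:**
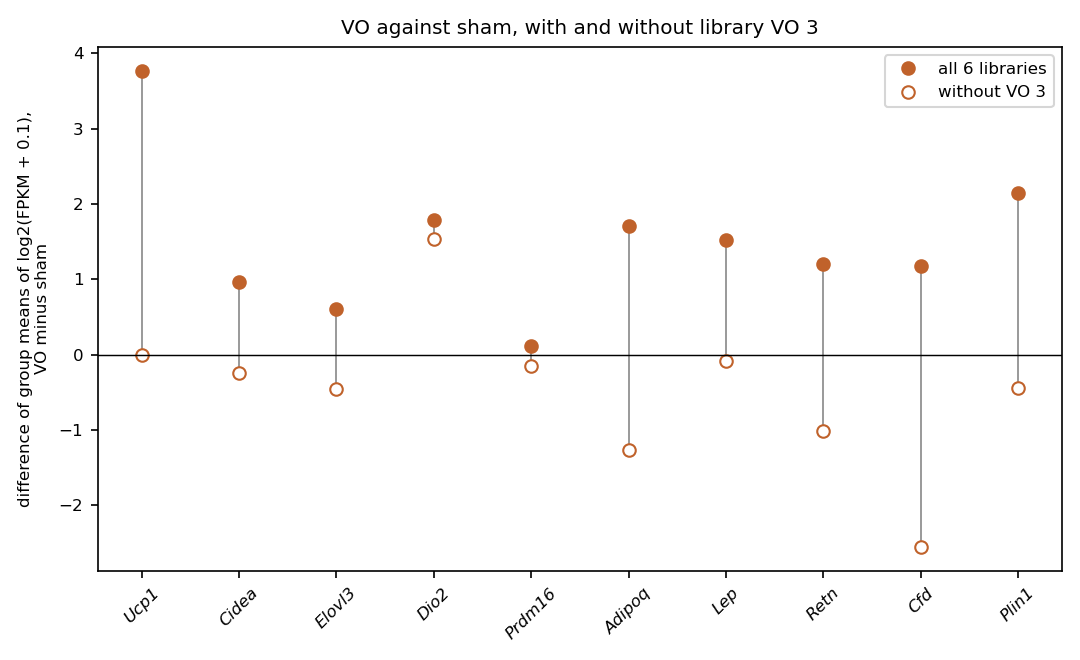
Difference of group means (VO minus sham, log2(FPKM + 0.1) scale) for each marker with all 6 libraries (filled circles) and without VO 3 (open circles). Apart from Dio2, whose difference goes from 1.79 to 1.53, the open circles lie at or below 0.

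The make-up of the fat RNA was compared between the libraries that had any. In VO 3, Ucp1 gave 86.1% of the fragments of Ucp1 and Adipoq together (exact binomial 95% interval 85.3 to 86.8), and its FPKM was 5.21 times that of Adipoq. Sham 3 had 0 Ucp1 fragments of 11 (exact binomial 95% interval 0 to 28.5%, and 27.3% at the floor of 3 fragments), and at the ratio of VO 3 it would have held 67.9. Sham 1 had 0 of 3 (interval 0 to 70.8%). Relative to Adipoq, Plin1 was at 0.442 of its FPKM in VO 3 and at 0.243 in sham 3, and Retn at 0.207 and 0.557. The trace of adipocyte RNA in sham 3 thus lacked the Ucp1 share seen in VO 3, and with these few fragments its kind could not be set further.

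Genes whose level resembled that of Adipoq were sought by Pearson correlation of log2(FPKM + 0.1) over the 6 libraries, among tested genes with at least a 2-fold range. The 8 nearest were Adig (r = 0.993), Scd1 (r = 0.993), Ppm1m (r = 0.991), Cidec (r = 0.989), Gpd1 (r = 0.987), Car3 (r = 0.983), Cdo1 (r = 0.981) and Dhdh (r = 0.979). All points share the same 6 libraries, and VO 3 weighs heavily in each value. Over the other 5 libraries, in which Adipoq was read in sham 1 and sham 3 alone, r was 0.991 for Adig, 0.953 for Car3 and 0.926 for Scd1, and 0.802 to 0.897 for the other 5. Adig (adipogenin) was at 0.079, 0 and 0.152 FPKM in sham 1 to sham 3, from 1, 0 and 2 fragments. It was at 0 in VO 1 and VO 2, and at 20.6 FPKM in VO 3. Car3, the carbonic anhydrase of adipocytes and slow muscle, was at 0.942, 0.142 and 2.29 FPKM in the sham libraries, at 0.019 and 0 FPKM in VO 1 and VO 2, and at 227 FPKM in VO 3. Both had the same order of libraries as Adipoq where Adipoq was above 0. For Adig, this order and the r without VO 3 rest on 1 and 2 fragments in sham 1 and sham 3, near the limit of detection.

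For Ucp1 the genes reported from the same search were Igkv16-104, Kng2, Fasn, Tkt, Elovl6, Gpd2 and Pck1, with r of 0.990 to 1.000. As Ucp1 was 0 in 5 libraries, likeness to it says only that a gene was high in VO 3 and even elsewhere, and it could not be computed without VO 3. Fasn (fatty acid synthase) was at 3.98, 4.97, 4.96, 4.60, 4.26 and 36.2 FPKM from sham 1 to VO 3. Pck1, the enzyme that supplies glycerol 3-phosphate for triglyceride in fat, was at or below 0.206 FPKM in 5 libraries and at 56.8 FPKM in VO 3.

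Other genes of adipocytes were read from lists written by hand, with earlier results of these libraries known. Of 18 other general adipocyte genes, 17 were highest in VO 3, 15 were more than 2-fold and 11 more than 4-fold above the highest of the other 5 libraries. Over all tested genes, 14.2% were highest in VO 3, 0.729% were more than 2-fold and 0.309% more than 4-fold above. These shares leave out genes under the filter, and 3 of the 18 were such genes. None of the 15 that were tested passed limma's moderated test of VO against sham at an adjusted p under 0.05, as was the case for 0.00792% of all tested genes (1 gene). At an unadjusted p under 0.05, 2 were higher in VO and 0 lower, where over all tested genes 3.89% were higher and 8.08% lower. These were Lipe, hormone-sensitive lipase, and Trarg1, listed as Tusc5, a regulator of glucose transporter traffic in fat. Each had an unadjusted limma p of 0.032 and an adjusted p of 0.41.

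The 4 most abundant genes of this list were Pnpla2, Fabp4, Car3 and Plin4. Pnpla2, the lipase that starts triglyceride breakdown, was at 94.2, 87.6, 91.0, 66.1, 87.2 and 170 FPKM from sham 1 to VO 3. Fabp4, a fatty acid carrier of adipocytes that capillary endothelium also makes, was at 46.6, 34.0, 34.5, 39.1, 45.4 and 139 FPKM. Plin4 did not follow, at 17.1 to 36.7 FPKM in the other 5 libraries and 32.3 FPKM in VO 3. Cidec, Adrb3 and Pparg, named after their values were seen, were lower elsewhere: Cidec, a droplet fusion protein, was at 46.0 FPKM in VO 3 and at or below 0.208 FPKM in the rest, Adrb3, the adrenergic receptor of adipocytes, at 5.55 and at or below 0.082 FPKM, and Pparg, the regulator of fat cell fate, at 14.3 and 1.28 to 2.39 FPKM. The median difference of the tested genes of the list was 0.96 on the log2(FPKM + 0.1) scale and -0.12 without VO 3, against -0.01 and -0.02 for all tested genes. Of these genes, 5 passed the filter through VO 3, and over all 18 the median was 1.08, and -0.13 without VO 3. In 4 of the 18, Lipe, Pparg, Cebpa and Trarg1, VO was higher without overlap of the groups, as for 8.25% of all tested genes. Without VO 3 their differences were 0.52, 0.57, 0.45 and 0.97, in that order. Cebpa was named after its values were seen.

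Brown fat genes beyond the 5 markers were mixed in VO 3. Of 14, 11 were highest in VO 3, 6 were more than 2-fold above the next library and 8 were not. Among all tested genes, 14.2% were highest in VO 3 and 0.729% more than 2-fold above. As 9 of the 14 were not tested, the counts are not directly comparable with these shares. The most abundant were Slc36a2, an amino acid carrier on the brown adipocyte surface, at 7.96 to 15.5 FPKM and 25.1 FPKM in VO 3, Gk, glycerol kinase, at 2.86 to 4.16 and 7.33 FPKM, P2rx5, an ATP-gated channel, at 2.65 to 5.37 and 5.89 FPKM, and Acot11, a thioesterase, at 1.84 to 2.87 and 4.85 FPKM. None of the 5 tested passed the test, and 0 had an unadjusted p under 0.05 in either direction. The median difference of the 5 tested genes was 0.17 and, without VO 3, -0.19. The 6 genes above 2-fold were all under the filter, and over all 14 the median was 0.29, and -0.10 without VO 3.

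Several further genes of the list were named after their values were seen. Otop1, a proton channel of brown fat, was at 4.43 FPKM in VO 3 and at or below 0.075 FPKM elsewhere. Slc27a2, Ffar4, Nrg4 and Clstn3 were at 2.67, 2.10, 2.01 and 2.82 FPKM in VO 3, and at or below 0.293 FPKM in the others. Ebf2, a factor that selects brown fat genes, was at 4.45 FPKM in VO 3 and at 2.01 to 2.38 FPKM in the rest. Zic1, which marks brown fat of the interscapular depot, was at 0.021 FPKM in VO 3, the lowest of the 6 libraries, where the others were at 0.022 to 0.077 FPKM, and these values rest on 2 to 8 fragments. Lhx8, also known from the interscapular depot, was at 0.240 FPKM in VO 3, from 10 fragments, and at or below 0.065 FPKM elsewhere, from 0 to 3. Fgf21 was listed at 0 in all 6 libraries.

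**Figure D3:**
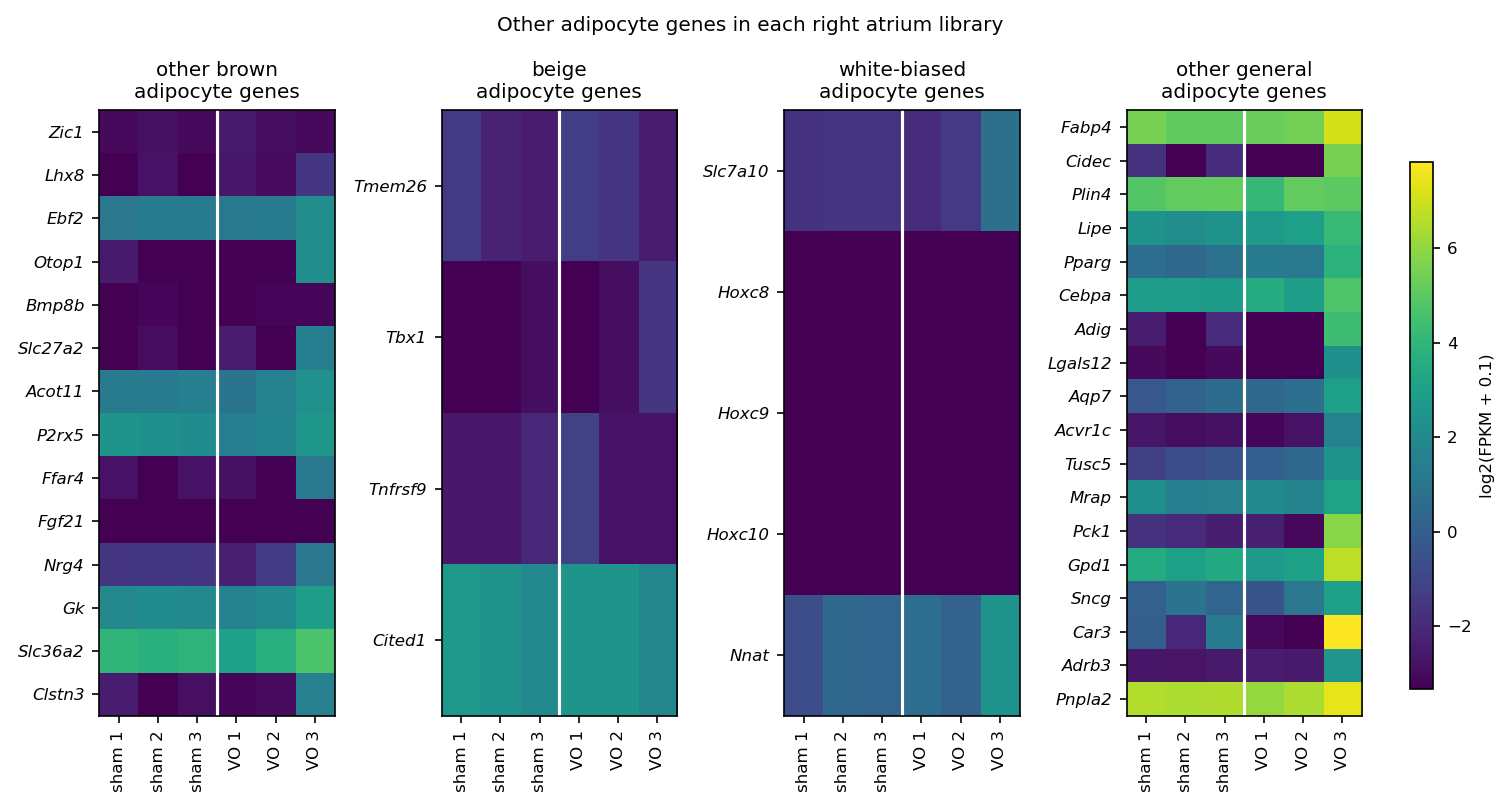
Level of every gene of 4 adipocyte lists in the 6 libraries, as colour on the log2(FPKM + 0.1) scale. Most general genes and part of the brown genes are brightest in VO 3, while Hoxc8, Hoxc9 and Hoxc10 are at 0 in all 6 libraries and Cited1 is lowest in VO 3.

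Beige and white-biased genes did not follow the same pattern. Of 4 beige genes, 1 was more than 2-fold higher in VO 3 than elsewhere: Tbx1, at 0.242 FPKM against at most 0.035 FPKM. Among all tested genes this held for 0.729%, and Tbx1 was not tested. Cited1 was at 3.33 FPKM in VO 3 and at 3.99 to 6.05 FPKM in the other libraries, Tmem26 at 0.081 and 0.081 to 0.323 FPKM, and Tnfrsf9 at 0.045 and 0.045 to 0.344 FPKM. Of the 5 white-biased genes, Hoxc8, Hoxc9 and Hoxc10, which are on in posterior white depots such as inguinal fat, were listed at 0 in every library. Slc7a10, an amino acid carrier of the white adipocyte surface, was at 1.61 FPKM in VO 3 and at most 0.262 FPKM elsewhere, and Nnat, a membrane protein also made by nerve and endocrine cells, at 5.05 and at most 1.54 FPKM. The tested gene of each list, Cited1 and Nnat, had an unadjusted p of 0.57 and 0.12.

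By Ucp1, with Cidea in excess and Otop1 present, the fat RNA of VO 3 held RNA of the brown kind. Not every brown gene followed: Prdm16 was 1.55-fold above the next library, Dio2 was also high in VO 1, which had no fragment of Ucp1 or Adipoq, and 8 of the 14 other brown genes were not above 2-fold. The Hoxc genes, at 0 in all 6 libraries, do not separate brown from white fat here. Retn, Lep and Slc7a10 were there as well, and as brown adipocytes can make them at a low level, a part of white fat in VO 3 cannot be told apart from them in whole tissue. The markers of the interscapular and beige types were mixed and low, with Lhx8 and Tbx1 higher in VO 3 and Zic1, Tmem26, Tnfrsf9 and Cited1 not, so the type of brown fat was not set. VO 1 and VO 2 had no fragment of Ucp1, Adipoq, Lep, Retn, Cfd or Plin1, and sham 2 had none of these but 5 fragments of Cfd. Sham 1 and sham 3 held a trace of adipocyte RNA without a Ucp1 fragment.

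Genes that brown fat shares with heart muscle were read in every library of both groups. Of 10 such genes, 0 were more than 2-fold above the next library in VO 3. As this held for 0.729% of all tested genes, a count of 0 among so few does not set the list apart. Fabp3, a fatty acid carrier, was at 657 FPKM in VO 3 and at 434 to 968 FPKM elsewhere. The respiratory chain subunits Cox8b and Cox7a1 were at 370 and 164 FPKM in VO 3, within the ranges of 185 to 457 and 69.0 to 341 FPKM of the other libraries. The pyruvate dehydrogenase kinase Pdk4 was at 139.5, 77.3 and 119 FPKM in the sham libraries and at 147, 193 and 233 FPKM in the VO libraries, with no overlap (limma unadjusted p = 0.019, adjusted p = 0.40). Pdk4 did not pass the test, and its difference of 0.79 on the log2 scale was 0.63 without VO 3. Of all tested genes, 8.25% were higher in VO without overlap, and 3.89% were higher at an unadjusted p under 0.05.

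**Figure D4:**
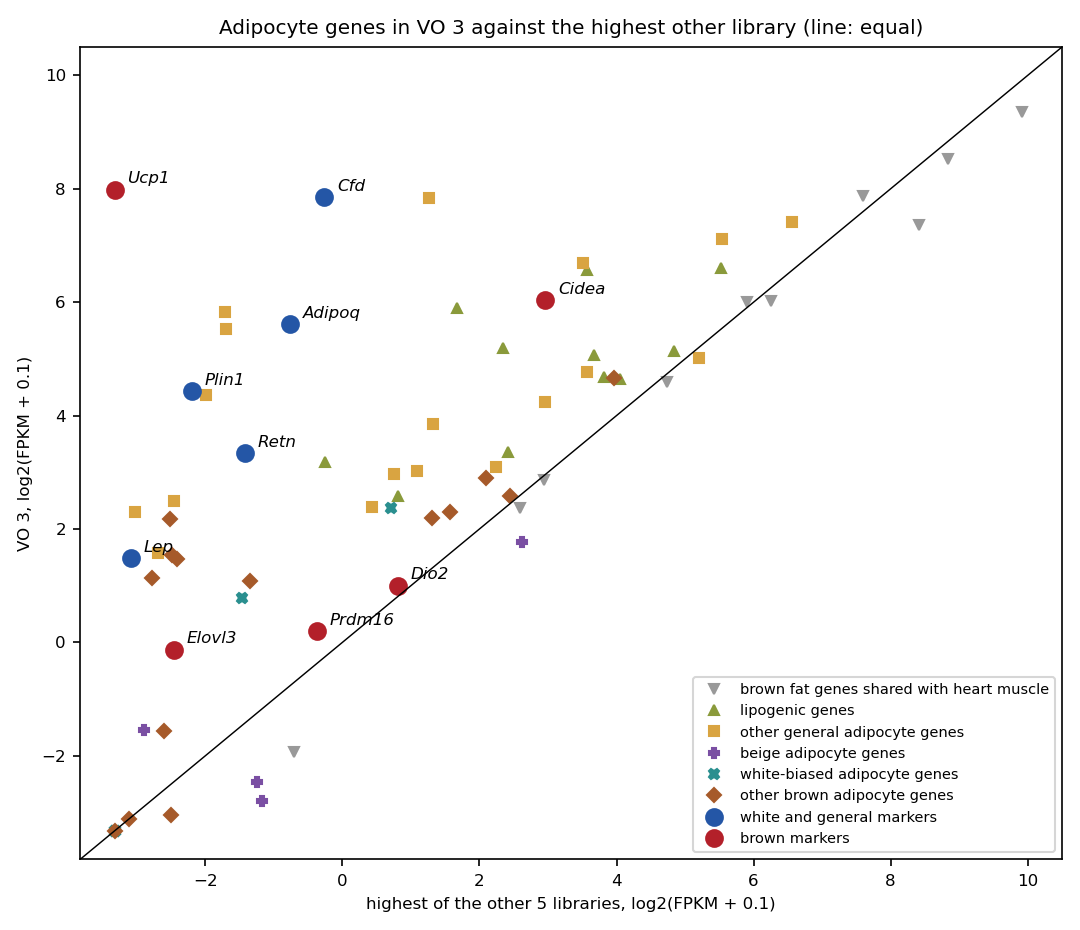
Level in VO 3 (vertical) against the highest of the other 5 libraries (horizontal), both as log2(FPKM + 0.1), for the 10 markers (large named circles) and the genes of 6 lists. Ucp1, Cfd, Adipoq and Plin1 lie far above the line of equal levels, Dio2 and Prdm16 near it, and the genes shared with heart muscle near or below it.

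Lipogenic genes, which make fatty acids and triglyceride and are busy in brown fat, went with the markers. Of 11, 7 were more than 2-fold above the next library in VO 3, where this held for 0.729% of all tested genes. The list was chosen with earlier results known, and 1 of its genes passed the filter through VO 3. The most abundant were Dgat2, which makes the last step to triglyceride, at 20.7 to 46.1 FPKM and 96.8 FPKM in VO 3, Scd1, a desaturase, at 6.23 to 11.7 and 95.3 FPKM, Me1, malic enzyme, at 21.7 to 28.5 and 35.3 FPKM, and Gpam, which starts glycerolipid synthesis, at 12.4 to 16.5 and 25.1 FPKM. None passed the test. Gpam was higher in VO at an unadjusted limma p of 0.031 (adjusted p = 0.41), and its groups did not overlap. Of all tested genes, 3.89% were higher at an unadjusted p under 0.05, and 8.25% were higher without overlap.

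Relatives of Ucp1, Plin1 and Cidea in the same families were read as well. Of Ucp2, Ucp3, Plin2, Plin3, Plin5 and Cideb, 0 were more than 2-fold above the next library in VO 3. As this held for 0.729% of all tested genes, a count of 0 among so few does not set these relatives apart. Ucp3, the uncoupling relative of muscle, was at 4.02, 1.499 and 1.82 FPKM in the sham libraries and at 8.47, 10.1 and 7.16 FPKM in the VO libraries, with the lowest VO value in VO 3. Its difference was 1.88 ± 0.44 (SE) on the log2 scale and 2.003 without VO 3 (limma unadjusted p = 9.3e-04, adjusted p = 0.28). Plin2, which coats droplets in many cell types, was at 9.88, 9.46 and 9.32 FPKM in the sham libraries and at 16.7, 11.9 and 20.1 FPKM in the VO libraries (unadjusted p = 0.0059, adjusted p = 0.37). Both sets of groups were apart, as were those of 8.25% of all tested genes in this direction, and 3.89% were higher at an unadjusted p under 0.05. Neither Ucp3 nor Plin2 passed limma's test after adjustment.

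Receptors for the hormones of fat were read in all libraries. Adipor1 and Adipor2, the adiponectin receptors, were at 41.7 and 25.5 FPKM in VO 3 and at 41.2 to 56.4 and 14.8 to 19.3 FPKM elsewhere, and the leptin receptor Lepr was at 2.11 and 2.14 to 2.96 FPKM. C3, the complement protein upstream of the Cfd substrate, varied widely, from 9.94 FPKM in sham 1 to 175 FPKM in VO 1, and was at 51.4 FPKM in VO 3. Of 8 progenitor genes of fat stroma, 6 were highest in VO 3, beside 14.2% of all tested genes. Dlk1, which was not tested, was the 1 more than 2-fold above the next library, at 0.226 FPKM against at most 0.098 FPKM. That held for 0.729% of all tested genes. Ly6a was at 122 FPKM in VO 3 and 58.0 to 105 FPKM elsewhere, and Pi16 at 13.6 and 6.34 to 7.52 FPKM. Pdgfra was at 15.4 FPKM in VO 3 and 13.9 to 17.5 FPKM elsewhere, and Cd34 at 34.1 and 28.0 to 33.1 FPKM. None of the 5 receptor and complement genes or of the 7 progenitor genes tested had an unadjusted p under 0.05.

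Markers of other tissues near the RA were summed as FPKM over each list. Skeletal muscle markers summed to 6.81 FPKM in VO 3 and to 3.25 to 15.3 FPKM elsewhere, with the fast myosins Myh1 and Myh4 at 0 in VO 3. Thymus markers summed to 1.57 FPKM in VO 3 and to 0.21 to 0.82 FPKM elsewhere, with 3 of 7 more than 2-fold above the next library. Mesothelium and epicardium markers were at 87.8 FPKM in VO 3, inside the range of 51.4 to 127 FPKM of the rest. Sympathetic neuron markers were at 15.5 FPKM in VO 3 and at 5.48 to 10.1 FPKM elsewhere, with 3 of 4 more than 2-fold above the next library, where Prph, a filament of peripheral neurons, was at 5.08 FPKM against at most 0.689 FPKM. Such an excess of more than 2-fold was seen for 0.729% of all tested genes. However, none of the 7 thymus genes was tested, nor were 2 of the 4 neuron genes. The part of thymus and nerve tissue in the values of VO 3 was not tested. Ventricle markers summed to 62.0, 3.51, 57.8, 8.94, 3.53 and 22.1 FPKM from sham 1 to VO 3. Their highest sums were thus in sham 1, sham 3 and VO 3, the libraries with Adipoq fragments, and a link between the 2 was not tested. Lung epithelium markers were at 4.67 FPKM in VO 3 and at 0 in sham 3 to 8.29 FPKM in VO 1 elsewhere. B cell markers were at 1.59 FPKM in VO 3 and 0.992 to 3.30 FPKM elsewhere. Atrial markers summed to 8163 FPKM in VO 3 and to 5645 FPKM in VO 1, with 11478 to 18208 FPKM in the other 4 libraries.

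**Figure D5:**
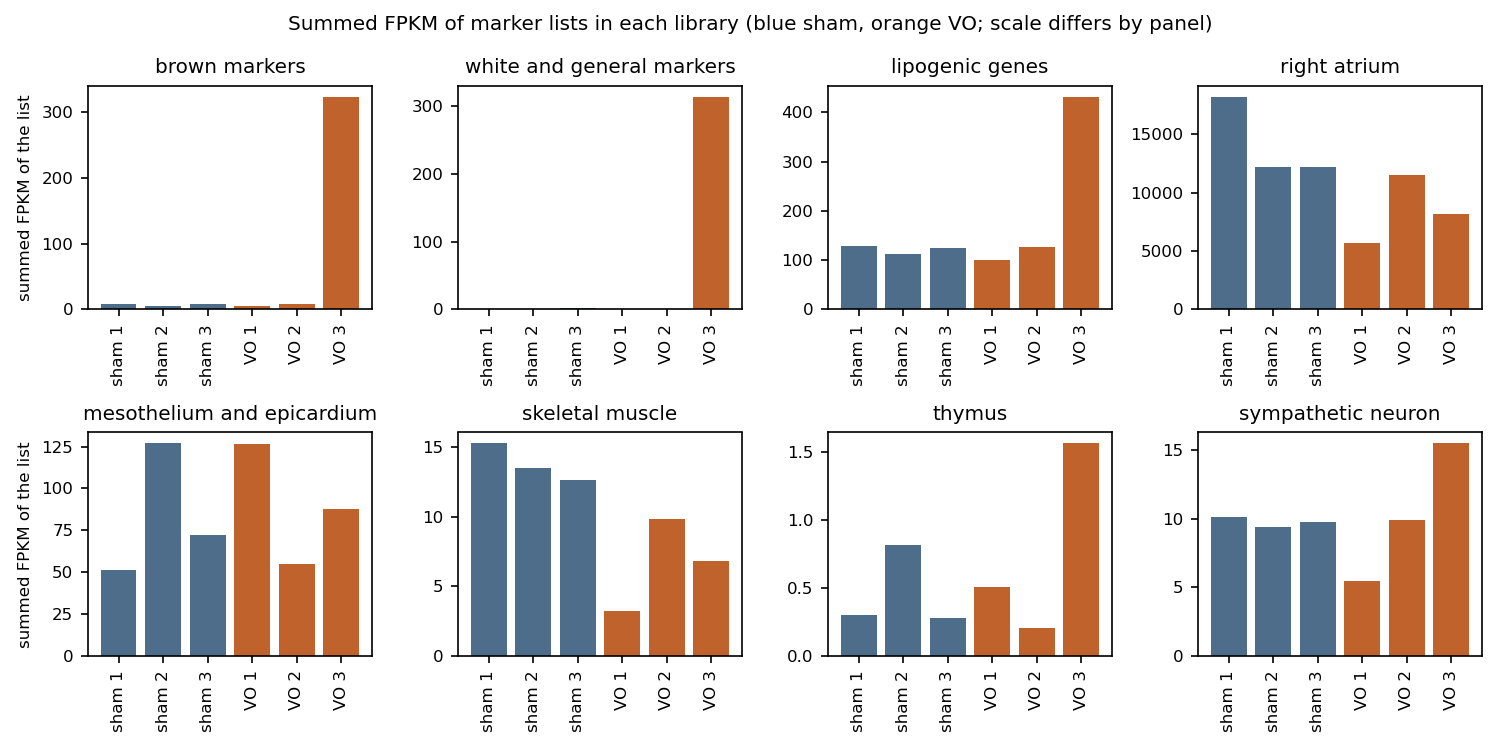
Summed FPKM of 8 marker lists in each library, sham in blue and VO in orange, with a scale of its own in each panel. The brown list (323 FPKM) and the white and general list (314 FPKM) stand out in VO 3, which is also highest for lipogenic, thymus and sympathetic neuron genes but not for skeletal muscle or mesothelium.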

How the data were processed

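RNA-seq of whole RAs at postnatal day 21 was analysed in 3 sham and 3 VO libraries. Per the labels, the submitters' processing notes name HISAT2 2.0.5, featureCounts 1.5.0-p3, DESeq2 1.16.1 and the build GRCm38 (mm10). The values deposited by the authors are FPKM, computed from gene length and counts. The table held 54093 complete genes, and 1 incomplete last line was left out. In each library, the products of FPKM and gene length were whole multiples of the smallest step (100% of values above 0, tolerance 0.001 of a fragment), from which 15963082 to 17237903 fragments per library were recovered. Scaling by the median of ratios left all 6 libraries as they were (factor 1.00), so the deposited values were already level by that measure. Their divisor was not the fragment total. It was 18.1 fragments per FPKM and kilobase in VO 1 and 15.6 in sham 1, for 16852482 and 16494342 fragments on genes. Coordinates were the same as in the GENCODE annotation of GRCm38 for 98.4% of 54039 shared genes.

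The markers and the gene lists were chosen with earlier results of these data known, so the markers carry no test. For all other genes, log2(FPKM + 0.1) was fitted with limma 3.58.1 in R 4.3.3 (eBayes with trend) over the 12627 genes whose mean FPKM reached 1. The contrast was VO minus sham with no covariate, tests were two-sided, and p-values were adjusted by the Benjamini-Hochberg method (threshold 0.05). The authors' DESeq2 test was not repeated. An exact permutation test of 3 libraries against 3 cannot give a p under 0.1. Intervals are exact Poisson or binomial at 95%, and with the floor of 3 fragments cover counting error only. From each list, genes past the threshold were to be named, or else up to 4 with the highest mean FPKM, and the 8 genes most like Adipoq and Ucp1; others are said to be named after their values were seen. A gene that the rule would name is not reported here. Motif matches were counted in RefSeq promoters. The fit and the recovery of fragments were tested on simulated data. Alternatives were a pseudocount of 1 or of 0.01, a filter at a mean of 0.1 FPKM, no filter, TPM, quantile normalization, eBayes without trend, voom on the recovered fragments, the replicate block and leaving out each library.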

Additional observations from a re-analysis of the deposited data

How the results depend on the processing

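The count of genes past the threshold, 1 in the reported fit, was small under every setting: 2 with a pseudocount of 1, 3 with a mean FPKM of at least 0.1, 3 without trend, and 0 with quantile normalization, with the replicate block and with any library left out (range 0 to 0). The cause was not tested. Same-numbered libraries were not treated as pairs, since their deviations from the group means correlated at -0.108, 0.011 and -0.029, and the replicate block (0 genes) changed no other call. Library VO 3 set most of the fat results. Without it, the median difference of the other general adipocyte genes was -0.12 in place of 0.96 (range over left-out libraries -0.12 to 1.60), and that of the other brown genes -0.19 in place of 0.17. Lipe, Pparg, Cebpa and Trarg1 of the general list stayed higher in VO without VO 3, by 0.45 to 0.97. Of the 10 markers, 9 lost their higher mean in VO without VO 3. Prdm16 also turned negative with quantile normalization and Cfd with a pseudocount of 0.01. Dio2 kept its sign in all 10 alternatives that could be computed for it, and was at 0.85 with a pseudocount of 1. Depth limits the traces in sham 1 and sham 3, which rest on 3 and 11 Adipoq fragments.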

Other observations

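Of the 39 tested genes read more than 4-fold above every other library in VO 3, 18 were in the adipocyte and lipogenic lists, 6 of them among the 10 markers. The lists were chosen with earlier results known, and part of their genes passed the filter only through VO 3. This overlap is therefore a description and carries no test. Genes named here from the other 21 were picked after their values were seen. Cdo1, cysteine dioxygenase, was at 96.0 FPKM in VO 3 and at 1.37 to 2.81 FPKM elsewhere, and Pcx, pyruvate carboxylase, at 20.1 and 1.06 to 2.88 FPKM. Prkar2b, a regulatory subunit of protein kinase A, was at 45.3 and 2.63 to 5.10 FPKM. Letmd1, a mitochondrial protein, was at 16.2 and 2.61 to 3.62 FPKM.

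S100b, a protein of glia that adipocytes also make, was at 9.22 FPKM in VO 3 and at 0.665 to 1.24 FPKM elsewhere, and Tubb3, a tubulin of neurons, at 8.66 and 0.23 to 1.09 FPKM. These values are a description of 1 library.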
